A study of Gasterosteus aculeatus with 16 samples.

Results

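The 8 clutches of threespined stickleback (Gasterosteus aculeatus) whose mothers were not exposed to a model predator formed the control group, and these 8 of the 16 clutches in the series are described here as a baseline of the whole embryo. They were taken by the maternal treatment given in their labels, and the 8 clutches of predator-exposed mothers entered no comparison. Each library was made from pooled whole embryos of 1 mother at 3 days post-fertilization (dpf), so a value is the mean of a pool and differences between sibling embryos cannot be seen. The mothers were wild caught and kept in groups in tanks, control females and males were not chased, eggs were fertilized in a dish, and the tank and the father of each clutch are not given. The sex of the embryos in a pool is not known. Clutches are named as in the labels by their 2 numbers, 13_14, 15_14, 15_2, 15_5, 20_28, 21_14, 5_14 and 5_21, whose meaning is not given.

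At this age the eyes are pigmented and the tail twitches. In a fish embryo the primitive red blood cells make embryonic globins, the lens fibres make crystallins, and the yolk syncytial layer and later the liver secrete apolipoproteins and other plasma proteins while yolk is taken up. Messenger RNA of the mitochondrial genome is transcribed inside the organelle and encodes subunits of the respiratory chain. Chromosome XIX is the sex chromosome of this species, with females XX and males XY.

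CPM is the number of reads in a gene per 1000000 reads in genes, recovered from the deposited logCPM values, and FPKM is a value per length of gene model. Between 8950867 and 12601909 reads per clutch lay in genes (median 11433871), fewest in 15_2, and a count of 0 allowed up to 0.238 to 0.335 CPM, counting error only. Gene names came from the study's own list of genes chosen for a difference with maternal exposure, which names 389 of the 17440 genes. Named genes are therefore a selected sample, and the other genes are given by ID and place in the genome build BROADS1.

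Most measured genes were found in every control clutch. Of the 17440 genes, 14819 (85.0%) reached 1 CPM in all 8 clutches, 423 were under 1 CPM in all 8 and 2198 reached it in some. The number of genes at 1 CPM ran from 15620 in 15_14 to 16190 in 15_2 (median 15827). Only 4 genes had no read in any control clutch. The authors had already removed genes with no reads in any clutch of the series, exposed ones included. They had also removed genes detected in only 1 sample and at under 1 CPM. The share detected and the number of unread genes depend in part on this filter. Of the named genes, 326 reached 1 CPM in all 8 clutches and 11 in none, among the latter the protease gene CTSB (ENSGACG00000010234), the fucosyltransferase gene FUT9 (6 of 13) and 6 small structured RNA genes that include SNORA3 and SCARNA6. Tissue markers were taken from lists, and many reached 1 CPM in all 8 clutches. That held for all 4 named genes of blood, 5 of muscle, 7 of epidermis and 4 of the nervous system. It also held for 12 of 13 of the lens and 2 of 4 of the eye. The sarcomere gene MYOM3, named but not on the muscle list, reached 1 CPM in only 3 clutches. Genes at 1 CPM in a single clutch numbered 491. Of these, 140 were found in 15_2 and 98 in 15_5, against 15 in 15_14. The clutch with the fewest reads thus had the most genes of this kind.

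Presence and absence between clutches was rare among well-measured genes. In all, 11 genes had 0 reads in at least 1 clutch and at least 5 CPM in another, and 7 of the 11 also had an FPKM of 0 wherever their reads were 0. ENDOD1 (ENSGACG00000005890, I:2139386-2140819), which encodes a protein with an endonuclease domain, was read at 9.65 CPM in 15_14, 5.82 in 21_14 and 3.65 in 5_14 and had 0 reads in the other 5 clutches. A gene with no name in the sources, ENSGACG00000008242 (X:12654372-12658742), stood at 35.1 CPM in 15_5, 13.9 in 20_28 and 4.25 in 15_2, and at no more than 0.26 CPM in the other 5. For the latter only 15_14 and 5_14 had 0 reads. The 3 clutches in which each of the genes was highest were not the same.

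**Figure D1:**
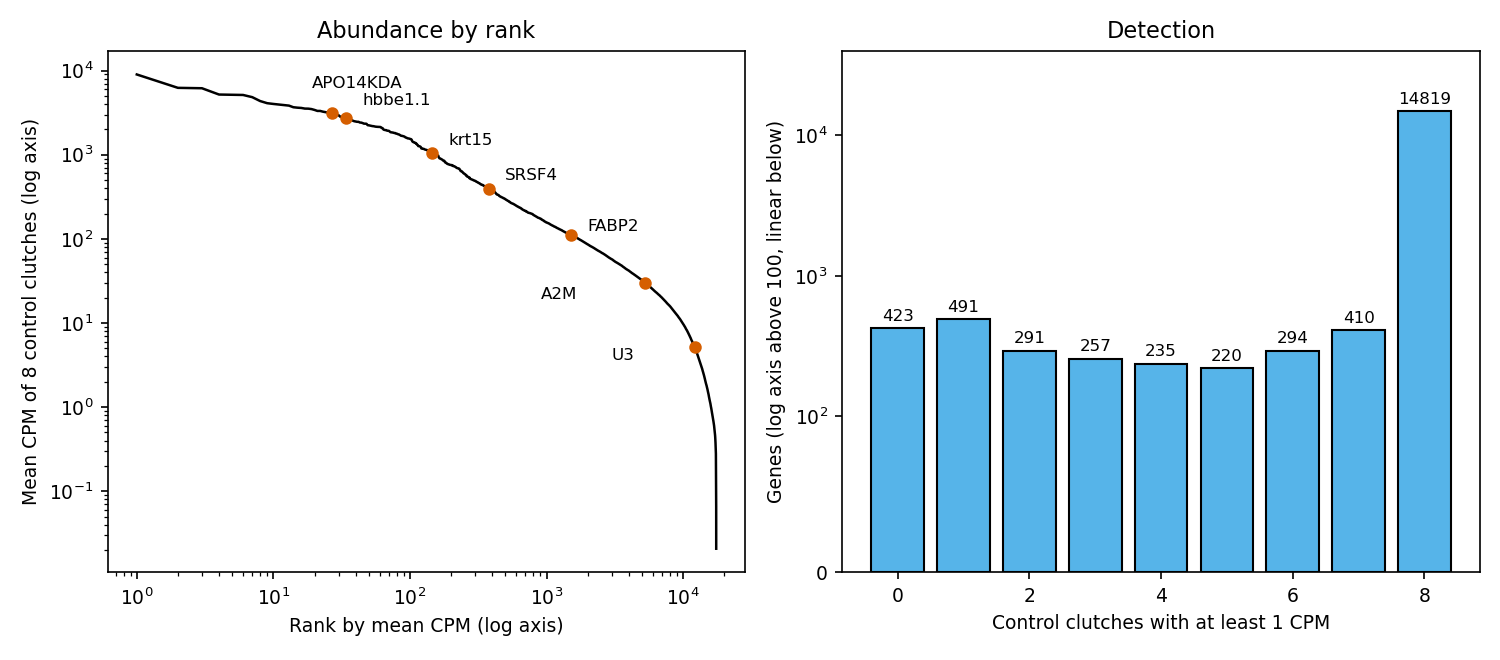
Left, mean CPM of the 8 control clutches against rank, both on log axes, with 7 named genes marked; right, the number of genes that reached 1 CPM in 0 to 8 clutches. Most genes (14819) reached 1 CPM in all 8 clutches, and 423 in none.

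Reads were spread over many genes. The 10 genes with the highest mean CPM held 5.42% ± 0.339 of reads (SD, n = 8), the first 100 held 26.5% ± 1.27 and the first 1000 held 61.0% ± 1.73. By mean level, 156 genes stood at 1000 CPM or more, 1555 between 100 and 1000, 8165 between 10 and 100, 6090 between 1 and 10, and 1474 under 1. No single gene dominated. The first, ENSGACG00000002182 (X:1567653-1571004), took 0.900% of reads on average, with a lowest value of 8157 CPM, a median of 8932 and a highest of 10166. Of the 100 genes with the most reads, 7 are named in the study's list.

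Among the named genes of the nucleus, a plasma lipid carrier took the most reads. APO14KDA (ENSGACG00000003467, XX:759236-760746), a fish apolipoprotein of the yolk syncytial layer, had a lowest level of 2665 CPM, a median of 3073 and a highest of 3944, rank 27 of all genes. It was highest in 15_14 and lowest in 15_5. The globin gene hbbe1.1, described with the other globins, came next at rank 34. BHMT (ENSGACG00000006029, XIII:4563439-4568919), a betaine-homocysteine methyltransferase, stood at 1444, 1992 and 2169 CPM at its lowest, median and highest, and here too 15_5 was lowest. The ribosomal protein genes RPL27 (lowest 1768, median 1938, highest 2151 CPM) and RPS24 (1631, 1801 and 1969 CPM) lay close to it, both lowest in 15_2. Nucleolin, NCL, which serves ribosome assembly in the nucleolus, ran from 1046 CPM in 15_14 to 1472 in 13_14, and the keratin gene krt15 of the outer epithelium from 972 CPM in 5_14 to 1174 in 5_21.

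Per length of gene model, a stretch on chromosome XI that holds globin genes led. Of the 20 gene models with the highest mean FPKM, 7 lay in this stretch of 11 models (XI:13640461-13663375). It holds hbbe1.1 and both hbae1 genes, the embryonic beta and alpha globins, and its other models have no name in the sources. Another 5 of the 20, each 92 nt long on an unplaced scaffold, had no logCPM value. The whole stretch took 1.76% ± 0.397 of reads (SD, n = 8). Its share was lowest in 15_5 at 1.27%, had a median of 1.60% and was highest in 15_2 at 2.36%, with 15_14 next at 2.34%. By summed FPKM 15_5 was again lowest at 65016, but 15_14 was highest at 114934, ahead of 15_2 at 97530. hbbe1.1 (ENSGACG00000013876, XI:13646453-13647149) had 1467 CPM at its lowest, 2724 at its median and 3641 at its highest, and 7149 to 14583 FPKM, lowest in 15_5 and highest in 15_14 by both measures. In pools of whole embryos, fewer cells of a type and less RNA per cell cannot be told apart.

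The alpha globin genes show how far the measures can part. hbae1 at XI:13649883-13650298 (ENSGACG00000013880) had only 2.44 to 5.03 CPM but 8800 to 13401 FPKM. The other hbae1 (ENSGACG00000013889, XI:13653435-13654112) ran from 7.14 CPM in 21_14 through a median of 63.3 to 139 in 15_5, the largest SD of logCPM of any gene (1.5), while its FPKM stayed between 5379 and 7845 (SD 0.22 on the log2(FPKM + 1) scale). CPM and FPKM came from different programs, and what sets them apart at these genes was not tested. Of the 100 models with the highest mean FPKM, 62 were also among the 100 genes with the highest mean CPM, 10 had no logCPM value and 4 had a mean under 100 CPM.

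Genes of the mitochondrial genome took 0.692% ± 0.0918 of reads (SD, n = 8). The share was lowest in 13_14 at 0.569%, had a median of 0.673% and was highest in 20_28 at 0.840%. This read share covers 16 models, among them MT:69-1014 and MT:1087-2776, described below, which were highest in 15_2 at 576 and 846 CPM. Of summed FPKM, 15_2 had the lowest share, 0.417%, with 13_14 at 0.703% and 20_28 again highest at 0.969%. That share counts very short models. ENSGACG00000020936, of 71 nt and a mean of 0.586 CPM, had 1826 FPKM in 13_14 and 0 in 15_2. The 92-nt scaffold models in its total were each highest in 15_2, at 28852 FPKM. The part of such models in the order of clutches was not tested. COX1, the catalytic subunit of cytochrome oxidase, took the most reads with a lowest level of 1649 CPM, a median of 2145 and a highest of 2672, followed by COX2 (1143, 1502 and 2041 CPM) and CYTB of the cytochrome bc1 complex (744, 1033 and 1164 CPM). Per length COX2 stood above COX1 in all 8 clutches, at 1359 to 2665 FPKM against 642 to 1147 FPKM for COX1. COX2, CYTB, COX3, ATP6 and ND1 were each lowest in 15_2, and COX1 in 13_14. The 10 respiratory chain genes of the nucleus in the named set were steadier as a group. Their summed level was 1179 CPM at its lowest in 15_2, had a median of 1265 and reached 1465 in 5_21, and their median SD of logCPM was 0.16, the same as over all genes to this precision. Single members overlapped with the mitochondrial genes. COX4I2 had an SD of 0.27 and COX5B of 0.24, beside 0.25 for COX1 and 0.23 for CYTB. COX2, COX3, ATP6 and ND1 had 0.28 to 0.33.

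A pair of unnamed mitochondrial gene models at the start of the genome did not follow these coding genes. ENSGACG00000020921 (MT:69-1014) had a lowest level of 70.1 CPM, a median of 139.7 and a highest of 576, and ENSGACG00000020923 (MT:1087-2776) had 218, 368.5 and 846 CPM. In both, 15_2 was highest, 5_21 next and 21_14 lowest. The fifth gene by mean CPM, ENSGACG00000001394 on an unplaced scaffold (scaffold_571, 7448 to 8018), had a lowest level of 2069 CPM, a median of 4054 and a highest of 14405, again with 15_2 highest and 5_21 next (6650 CPM). Libraries were selected for poly(A) RNA. The share of RNA left in each library without a poly(A) tail was not measured, and its part in these values was not tested.

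Another pair of mitochondrial models was nearly unread in a single clutch. ENSGACG00000020952 (MT:13775-14296) had 0.0818 CPM in 15_14 and 13.9 to 27.6 CPM in the other 7 clutches, and ENSGACG00000020940 (MT:7939-8106) had 0.245 CPM in 15_14 and 3.02 to 8.89 CPM elsewhere. By FPKM 15_14 was again lowest, at 0.425 against 37.7 to 79.4 for the first and at 11.6 against 166 to 444 for the second. Both have no name in the sources, and the other clutches did not overlap with 15_14 in either measure.

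Chromosomes differed in the reads they took for their number of genes. Chromosome XI had the largest share, 7.91% ± 0.365 of reads (SD, n = 8) with 5.01% of the genes, a ratio of 1.58, and X had 5.43% ± 0.168 with 3.66% of the genes, a ratio of 1.48. The globin stretch lies on XI and the most abundant gene on X. With the 100 most abundant nuclear genes left out, the share of XI was 5.72%. Chromosome XIX had the lowest ratio, 0.730, with 3.59% ± 0.247 of reads and 4.92% of the genes, and its genes had the lowest median level of all chromosomes, 10.4 CPM, against 17.4 CPM on III, the highest. On XIX 80.4% of genes reached 1 CPM in all 8 clutches, against 85.0% over all genes.

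**Figure D2:**
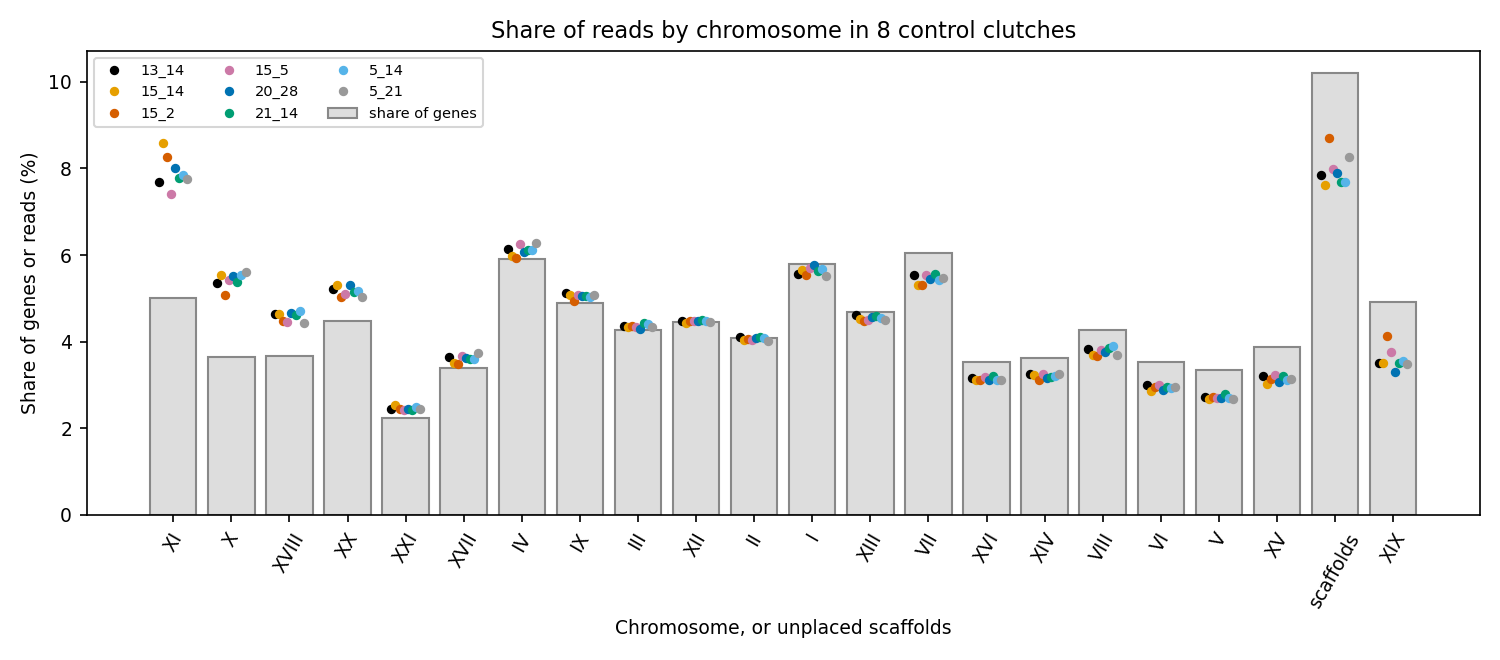
Share of reads (%) of each nuclear chromosome and of unplaced scaffolds in each of the 8 control clutches (points) beside its share of genes (bars), in order of the ratio of the mean read share to the gene share. XI takes 7.40 to 8.58% of reads with 5.01% of genes, and XIX 3.30 to 4.12% with 4.92%.

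The shares of most chromosomes were nearly equal between clutches, and that of XIX was not. The coefficient of variation (CV, the SD as a percent of the mean) of the read share was 0.434% on XII and 6.87% on XIX, the largest of the 21 chromosomes, ahead of XI (4.61%) and X (3.09%). On XIX the share was 3.30% in 20_28 at its lowest, 3.51% at the median and 4.12% in 15_2 at its highest, with 15_5 next at 3.75%.

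The difference on XIX ran through the genes of the chromosome. For each gene with a mean of at least 10 CPM, the deviation of each clutch from the gene's mean logCPM was taken, and its median over a chromosome was compared between clutches. Over the 434 such genes of XIX the median was +0.25 in 15_2, +0.15 in 15_5 and -0.17 in 20_28 (log2), and between -0.10 and +0.01 in the other 5 clutches, a range of 0.42 with scaling by library total. On the other 20 chromosomes that range was 0.15 to 0.23, with 15_5 the highest and 15_14 the lowest on each of them, at no more than 0.12 in size. In 15_2, 85.9% of the XIX genes lay above their own mean against 52.5% of the genes elsewhere. In 20_28, 12.2% did against 36.8%. In 15_5 the shares were 84.8% and 70.0%.

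The order of clutches depended in part on the scaling. With median-of-ratios size factors, which centre each clutch on its typical gene, the range was 0.31 on XIX and at most 0.10 elsewhere. On XIX 15_2 then lay at +0.21 and 20_28 at -0.10, while 15_5 lay at +0.04 and 15_14 lay at +0.01. On the other chromosomes 15_5 was then highest on none, and 15_14 was highest on X, XI and XVIII. On the log2(FPKM + 1) scale the range was 0.30 on XIX and at most 0.23 elsewhere, and 15_5 was highest on XIX at +0.14, ahead of 15_2 at +0.12, with 20_28 at -0.16. On that scale 15_2 was lowest on each of the other 20 chromosomes. The lowest clutch on XIX was 20_28 under all 3 scalings.

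Along XIX the deviation, with scaling by library total, was not even. In the first stretch of 2 Mb (35 genes) 15_2 lay at -0.07 and 20_28 at -0.01, within the range of the other clutches, and in the second (27 genes) they lay at +0.12 and -0.13. Between 4 and 12 Mb (213 genes in 4 stretches of 2 Mb) 15_2 lay between +0.30 and +0.34 and 20_28 between -0.25 and -0.17. From 12 to 20 Mb 15_2 lay between +0.10 and +0.25 and 20_28 between -0.17 and -0.11. The last stretch held only 5 genes. The embryos were not sexed and the labels give no sex. The deviation on XIX was not tested between clutches, since the labels put these clutches into 1 group.

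**Figure D3:**
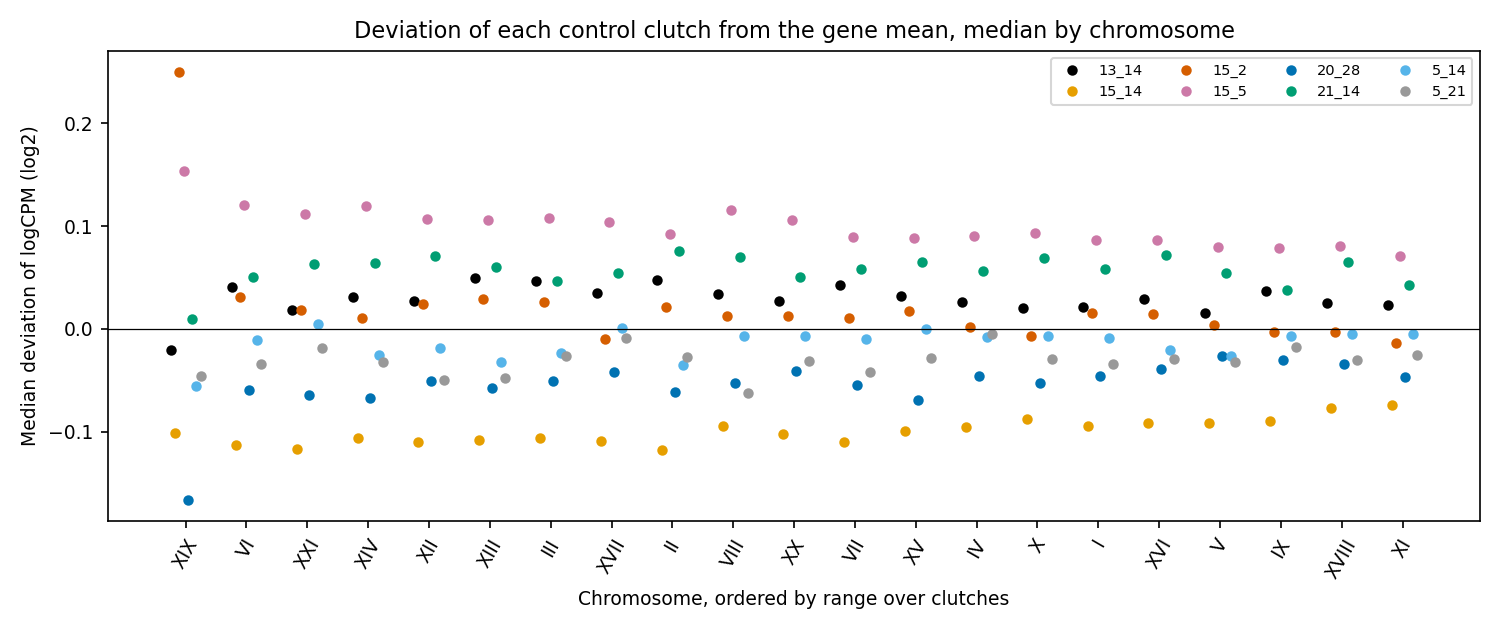
Median deviation of logCPM from the gene mean (log2) for genes with at least 10 CPM on each chromosome, scaled by library total, 1 point per control clutch, chromosomes in order of their range over clutches. XIX has the widest range, 0.42, with 15_2 at +0.25 and 20_28 at -0.17; no other chromosome exceeds 0.23.

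Spread between control clutches was first set against counting error. A chi-square test of the Poisson index of dispersion on the recovered reads called 12159 of the 17141 genes with a mean of at least 5 reads (70.9%, Benjamini-Hochberg adjusted, FDR 0.05). The share called was larger at higher levels, from 53.1% of genes at 1 to 10 CPM to 100% of those at 1000 CPM or more, so a count of called genes in a list depends on their levels and is given here as a description. Among named genes 328 of the 375 tested were called. Each clutch had 1 library, so spread beyond counting error includes any from RNA extraction and library preparation. The spread itself was small. Among the 1711 genes at 100 CPM or more, the CV beyond counting error had a median of 8.27% and quartiles of 6.25% and 11.9%, was over 30% in 26 genes and was 0 in 5. The median SD of logCPM over all genes was 0.16.

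The steadiest genes at 100 CPM or more had no name in the sources, and some of the steadier named ones at such levels are given here. SPCS3 (ENSGACG00000016427), a subunit of the signal peptidase of the endoplasmic reticulum, had 103 CPM at its lowest, 111 at its median and 118 at its highest, a CV of 4.36% beyond counting error. The splicing factor gene SRSF4 had 369, 395 and 428 CPM and a CV of 5.21%. For krt15 the CV was 6.16%, for RPL27 6.22% and for CIRBP, a cold-inducible RNA-binding protein, 6.52%. Summed over the 7 named epidermal genes, among them krt15 and KRT7, the level stayed between 2052 CPM in 5_14 and 2258 in 5_21 (CV 2.99%), most of it from krt15 and the KRT7 gene ENSGACG00000008104. Other members spread further: AGR2, a disulfide isomerase of secretory cells, ran from 83.6 CPM in 5_14 to 194 in 15_2, and the KRT7 gene ENSGACG00000002753 from 17.5 CPM in 5_21 to 33.5 in 15_14. FKBP4, a co-chaperone of the glucocorticoid receptor and the only named member of the stress axis list, ran from 154 CPM in 15_14 through a median of 177 to 201 in 15_2. It lies on XIX, whose median deviation, with scaling by library total, was -0.10 in 15_14 and +0.25 in 15_2. The part of that deviation in its level was not tested.

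At the other end, 171 genes (0.981% of 17440) had an SD of logCPM above 0.5 and 14 had one above 1. Of the 171, 77 had a mean of at least 10 CPM, 69 fell under 1 CPM in at least 1 clutch and 41 are named. The threshold falls within a continuous range of SDs. On the log2(FPKM + 1) scale 140 of the 171 also had an SD above 0.5, and 7 had one under 0.25. TUBA1B, an alpha tubulin, was one of these 7, with 34.0 CPM in 5_14 and 3.69 to 5.57 in the other clutches but 101 to 162 FPKM throughout. The 171 genes were highest most often in 15_2 (41 genes, 24.0%, beside 14.4% of all tested genes). They were lowest most often in 5_21 (45 genes, 26.3%, beside 16.3% of all tested genes). Among them 36 (21.1%) lay within 50 kb of another of the 171, beside 4.85% of all genes. The 36 included models of the mitochondrial genome, which all lie within 50 kb of each other. They also included neighbouring copies, such as U3, C3 and gamma crystallin genes. Of the 171, 6.43% had a model of at most 250 nt, beside 0.820% of all genes.

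**Figure D4:**
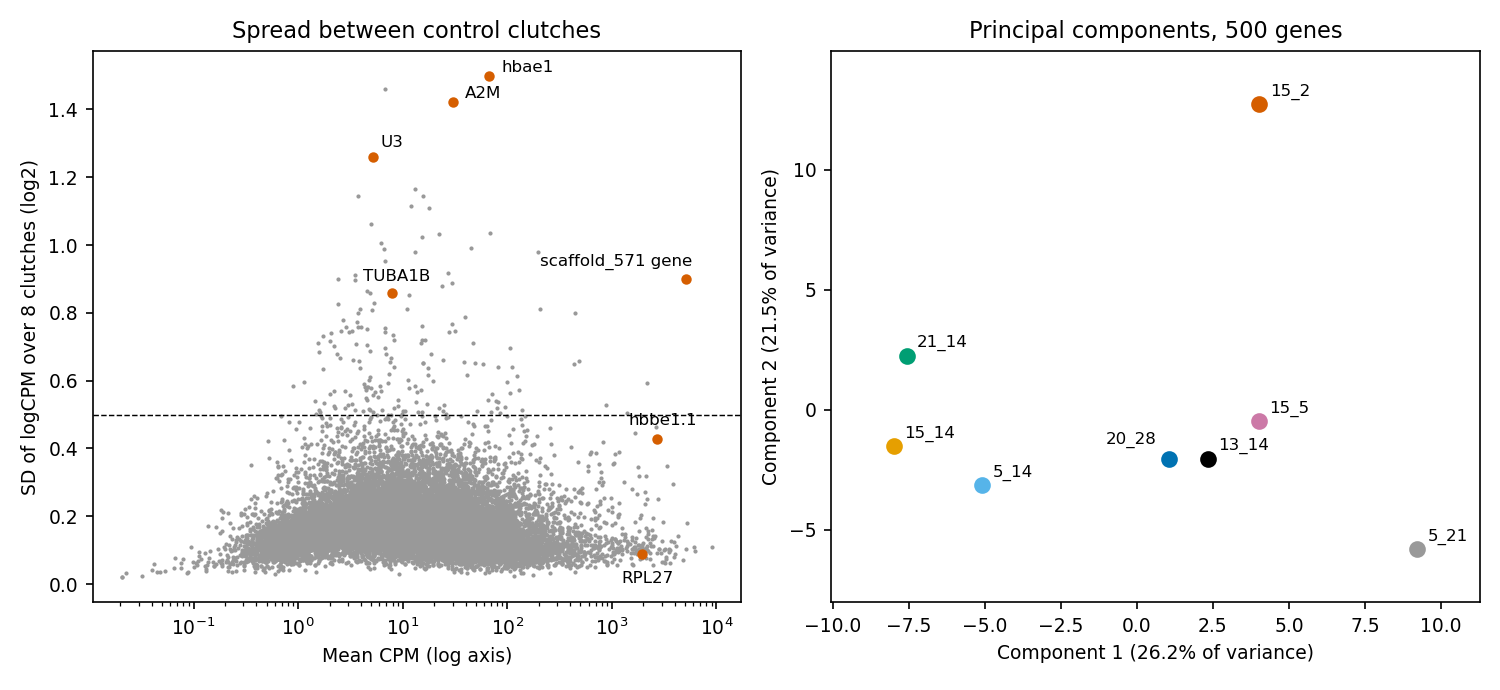
Left, SD of logCPM over the 8 control clutches (log2) against mean CPM (log axis) for each gene, with the threshold of 0.5 dashed and 7 genes marked; right, scores of the 8 clutches on the first and second principal components of the 500 most variable genes. hbae1 (ENSGACG00000013889) has the largest SD of logCPM (1.5), with an SD of 0.22 on the log2(FPKM + 1) scale. On the second component 15_2 stands apart at 12.7.

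Of the 41 named genes with an SD above 0.5, 9 belonged to the list of the liver and yolk syncytial layer and 8 to that of structured RNA. Most of the 9 were copies of C3, so that count rests largely on 1 gene family. The first list had 23 measured members, all 23 called by the dispersion test (background 70.9% of all genes tested and 328 of 375 named ones). Its 9 members with an SD above 0.5 compare with 41 of the 389 named genes, and its median SD was 0.44, beside 0.21 over named genes and 0.16 over all genes. Their summed level was 3824 CPM in 5_21, had a median of 4619 and reached 5935 in 15_14. In 5_21, 9 of the 23 had their lowest level and in 15_5 another 7. Of all tested genes, 16.3% were lowest in 5_21 and 5.99% in 15_5. In 15_14, 11 of the 23 had their highest level, and 5.87% of all tested genes did. With the scaling by library total used here, 27.2% of all tested genes were lowest in 15_14, and the order of clutches depended in part on the scaling.

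Several complement genes were lowest in 5_21. The c3 gene at IX:14623793-14644206 (ENSGACG00000018842), which encodes the central component of complement, had 10.4 CPM in 5_21, a median of 80.0 and 106 in 20_28. The c3 gene at IX:14166951-14195682 (ENSGACG00000018732) had 5.81 CPM in 5_21, a median of 32.7 and 47.8 in 20_28. C3 (2 of 2) (ENSGACG00000001267, on scaffold_332) had 0.337 CPM in 5_21, a median of 11.5 and 32.7 in 15_14, and C3 (1 of 2) beside it 0.758, 8.43 and 13.4 CPM. All 4 were lowest in 5_21, with 13_14 the next lowest in 3 of them. The other 2 named c3 genes were not: ENSGACG00000001260 ran from 14.4 CPM in 15_5 to 33.0 in 21_14, and ENSGACG00000001742 from 0.894 in 15_2 to 8.51 in 5_21, where it was highest. Near-identical copies could share reads, so the level of each copy is uncertain, but the FPKM of each of the first 4 was also lowest in 5_21.

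Other members of the list did not share 1 order of clutches. CP, ceruloplasmin, a copper-carrying oxidase of plasma, had 54.0 CPM in 5_21, a median of 98.8 and 178 in 15_14, a 3.29-fold range. hp, haptoglobin, which binds free hemoglobin, had 13.2 CPM in 15_2, a median of 21.7 and 61.7 in 15_14. FABP2 (2 of 2), a fatty acid-binding protein of the cytosol of gut cells, had 51.2 CPM in 5_21, a median of 106.7 and 238 in 21_14, apart from the rest, since 124 CPM in 15_14 came next. A2M (ENSGACG00000005228, I:992281-1011125), the protease inhibitor alpha-2-macroglobulin, went the other way. It had 2.38 CPM in 5_14, a median of 21.2 and 76.1 in 15_2, with 53.9 in 20_28 and 52.6 in 5_21, and only 6.54 and 7.67 in 15_14 and 21_14. Its SD of logCPM, 1.42, was 1.1 on the log2(FPKM + 1) scale.

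Most lens and eye genes were lowest in 5_21 as well. Of the 13 named lens genes, 10 of them gamma crystallins, 10 were lowest in 5_21 and 8 were highest in 15_14. Over all tested genes 5_21 was lowest for 16.3% and 15_14 was highest for 5.87%. The summed level of the 13 was 580 CPM in 5_21, had a median of 893 and reached 1221 in 15_14, with 1154 in 15_2 and 1138 in 21_14 close behind. The one with the most reads, crygm2c at XVI:17423409-17424134 (ENSGACG00000008734), had 100 CPM in 5_21, a median of 162 and 226 in 15_14, and crygm1 (ENSGACG00000008753) had 38.1, 64.4 and 112 CPM with its highest level in 21_14. The 10 gamma crystallins alone summed to 529 CPM in 5_21 and 1152 in 15_14, and 9 of the 10 were lowest in 5_21.

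Genes of the retina and eye field spread further but at low levels. VSX1, a homeobox gene of retinal interneurons, had 1.01 CPM in 5_21, a median of 6.37 and 15.2 in 21_14. OTX2, a homeobox gene of the forebrain and eye, had 3.88 CPM in 5_21, a median of 10.7 and 21.9 in 21_14, and RCVRN, the calcium sensor recoverin of photoreceptors, 0.421, 2.62 and 8.11 CPM with the same lowest and highest clutch. Of the 5 named genes on the muscle list, 1 was lowest in 5_21, the fast troponin I gene TNNI2 (5 of 5). It had 22.1 CPM there against 46.7 in 15_2, where it was highest. TNNI2 (5 of 5) and tnnt2d, also highest in 15_2 at 11.4 CPM, lie on XIX, whose median deviation was +0.25 in 15_2. That median is with scaling by library total, and its part in these levels was not tested. ENO3, the muscle enolase, was highest in 5_21 at 105 CPM and made up much of the list's level. Summed over the 5, they ran from 146 CPM in 5_14 to 209 in 15_2, and the parvalbumin-like gene pvalb or ocm2 ran from 7.46 CPM in 15_5 to 34.5 in 15_2.

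**Figure D5:**
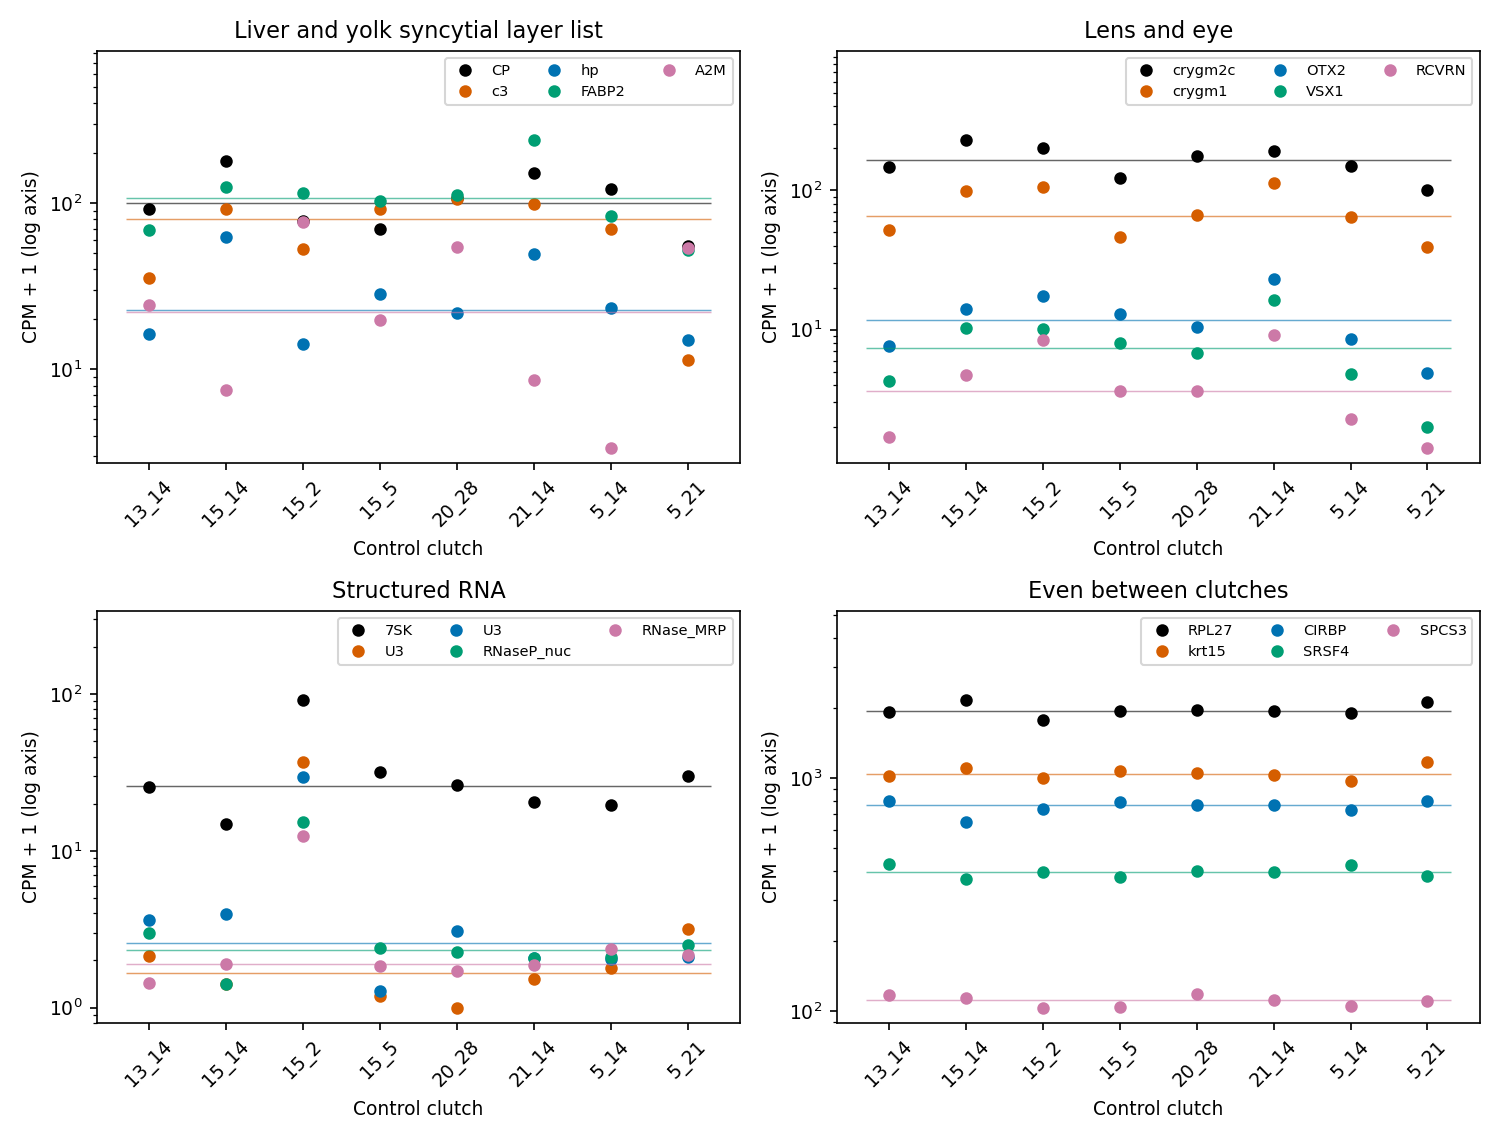
Level of 20 named genes (CPM + 1, log axis) in each of the 8 control clutches, with a line at each gene's median, in panels for genes of the liver and yolk syncytial layer list, lens and eye, structured RNA, and genes with little spread. Lens and eye genes are low in 5_21, the structured RNA genes are high in 15_2 alone, and the lower right genes lie close to their medians.

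Small structured RNA genes set 1 clutch apart. All 27 measured genes of this list were highest in 15_2, in which 14.4% of all tested genes were highest. Only 3 of the 27 reached 1 CPM in all 8 clutches, and for some the order rests on a few reads. SNORA3 had 0.559 CPM in 15_2 and 0.421 in 5_21, and 1 read in 15_2, the smallest library, was 0.112 CPM. Their summed level was 32.9 CPM in 15_14 at its lowest, 44.9 at the median and 263 in 15_2, with 56.5 in 5_21 next. 7SK, the RNA that holds the transcription elongation factor P-TEFb inactive, had 13.8 CPM in 15_14, a median of 24.8 and 90.4 in 15_2. The 4 U3 genes, whose RNA guides the processing of ribosomal RNA precursors, had 36.0, 28.6, 18.4 and 14.4 CPM in 15_2 and no more than 2.94 CPM in any other clutch. RNaseP_nuc and RNase_MRP, the RNA parts of enzymes that process transfer RNA and ribosomal RNA precursors, had 14.3 and 11.5 CPM in 15_2 and at most 2.00 and 1.35 CPM elsewhere.

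In the 19 genes of this list with enough reads to test, 17 were called (background 70.9% of all genes and 328 of 375 named ones), and 8 of the 27 had an SD above 0.5, beside 41 of 389 named genes. Their FPKM was highest in 15_2 for each of the 7 genes named above. The same clutch had the fewest reads, the highest levels of the scaffold_571 gene and of the mitochondrial models MT:69-1014 and MT:1087-2776, and the highest share of reads on XIX. The part of RNA quality, or of RNA without a poly(A) tail, in these values was not tested. Some protein-coding genes were also high in 15_2 alone. The sarcomere gene MYOM3 had 6.81 CPM there and at most 1.32 elsewhere. The immunoglobulin heavy chain gene IGHM, the only named marker of immune cells, had 3.69 CPM there and at most 0.189 elsewhere. Of 15966 genes with a mean of at least 1 CPM, 141 (0.883%) stood high apart in 15_2 by Dixon's test, described below. In 15_5 263 (1.65%) did, the most of any clutch, with scaling by library total.

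Principal components of the 500 most variable genes summarised these differences. The first held 26.2% of the variance and ran from -7.98 in 15_14, -7.57 in 21_14 and -5.08 in 5_14 to 9.21 in 5_21. Named genes with the steepest slopes on it were A2M and hbae1 (ENSGACG00000013889), higher toward 5_21, and C3 (2 of 2) and ENDOD1, higher toward 15_14. By FPKM this hbae1 went the other way, with 5648 in 5_21 and 7845 in 15_14. The second, with 21.5%, had 15_2 at 12.7 and the other clutches between -5.81 and 2.26, and a U3 gene had the steepest slope among named genes. The third, with 14.3%, had 15_5 at 10.1, and the monooxygenase gene FMO had the steepest slope among named genes. FMO had 1.62 CPM in 20_28, a median of 21.5 and 30.2 in 13_14. No pair of clutches looked like 1 library deposited in duplicate, since between 14.3% and 45.8% of genes differed beyond counting error in each pair.

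The second number in the clutch names was tested as a grouping, and the first was not. The clutches 13_14, 15_14, 21_14 and 5_14 share 14 as their second number. In limma 0 of 17440 genes were called higher (0%) and 0 lower (0%) in these 4 than in the other 4 at FDR 0.1, two-sided, with 691 genes (3.96%) at an unadjusted p under 0.05, and the smallest adjusted p was 0.359. ENDOD1, read in 3 of the 4 clutches with this number and in none of the others, was called in 1 fit, the one that left out 13_14. On the first component 3 of the 4 lay together at the low end, but 13_14 lay at 2.33, among the others.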

How the data were processed

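RNA of 10 pooled embryos per mother was sequenced in 100-nt single reads after oligo(dT) selection with a stranded kit. The authors trimmed the reads and aligned them to BROADS1 (Ensembl) with TopHat2 2.0.8. The deposited logCPM values, made by the authors with edgeR, are log2 CPM (counts in a gene per 1000000 reads in genes) with a moderating prior for 17440 genes. Genes with no reads in any sample, or detected in only 1 sample and at under 1 CPM there, had been removed. The deposited FPKM values, made by the authors with Cufflinks 2.1.1, cover 22456 gene models. Raised from the log2 scale, each logCPM value less the floor of 2.77 CPM was a whole multiple of 1 read (within 3.09e-08 of a read), which gave CPM and reads.

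Scaling was by library total. The SD of logCPM is damped at low levels by the floor. Dispersion was tested by chi-square (SciPy 1.17.1, mean of at least 5 reads) and the second number by limma 3.58.1 (lmFit, eBayes with trend) in R 4.3.3. The tests were checked on simulated data. The named genes were those with the highest FPKM, CPM, SD or lowest CV, up to 8 per functional list, and the mitochondrial and stress axis genes. Members and lists were chosen with earlier results of these data known. Genes outside this rule, picked out after their values were seen, are ENDOD1, NCL, CIRBP, SRSF4, SPCS3, MYOM3, hp, RNase_MRP, RNaseP_nuc, the undetected genes and some copies of c3 and U3. No sequence is shown, since none was matched to these IDs. Each clutch counted as 1 independent replicate, although mothers may share a tank or clutches a father.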

Additional observations from a re-analysis of the deposited data

Results flagged for a closer look

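Of 95 quantities examined over the 8 clutches, 18 had 1 clutch whose gap to the nearest other was large for the range of the group (Dixon's test, which chance alone passes in about 1 group of 20). Many of the genes were chosen for their spread, so the number is not a rate. Of the 18, 11 single genes had 15_2 as the highest clutch: the U3 genes ENSGACG00000022425 (36.0 CPM, next 2.19), ENSGACG00000022393 (28.6, next 2.94), ENSGACG00000022444 (18.4, next 2.54) and ENSGACG00000022354 (14.4, next 1.3), 7SK (90.4, next 30.7), RNase_MRP (11.5, next 1.35), RNaseP_nuc (14.3, next 2.00), IGHM (3.69, next 0.189), MYOM3 (6.81, next 1.32), the mitochondrial model ENSGACG00000020921 (576, next 289) and the scaffold_571 gene ENSGACG00000001394 (14405, next 6650). The summed structured RNA list was the twelfth, at 263 CPM with 56.5 next.

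The others were spread over clutches. FABP2 (2 of 2) was highest in 21_14 at 238 CPM, TUBA1B in 5_14 at 34.0 CPM and ENSGACG00000008242 in 15_5 at 35.1 CPM. CIRBP was lowest in 15_14 at 647 CPM, with 730 next. The summed liver and yolk syncytial layer list was highest in 15_14 at 5935 CPM, and the share of reads on chromosome V was highest in 21_14 at 2.79%, with 2.72% next.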

How the results depend on the processing

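The counts of detected genes, of genes with spread beyond counting error and the first component kept within 1.5 times under every alternative tried, and the mitochondrial share moved by less than its SD. The 171 genes with an SD above 0.5 became 440 on log2(CPM + 1), with all 171 among them, 728 on log2(FPKM + 1), which covers more gene models and shares 140, and 77 where a mean of 10 CPM was asked for. The share of the 100 most abundant genes was 49.3% of summed FPKM. The share of XI was 12.7% of summed FPKM and 5.72% without the 100 most abundant nuclear genes, and that of XIX was 2.79% and 3.89%. Leaving out each clutch in turn gave 14844 to 14910 detected genes, 26.2 to 26.7% of reads in the first 100 genes, 0.671 to 0.710% for the mitochondrial genome, 7.82 to 7.98% for XI, 3.52 to 3.64% for XIX, 156 to 191 variable genes, 11101 to 11853 genes beyond counting error, 0 to 1 genes for the second number and 26.3 to 32.2% for the first component. For 59 of the genes given in the report, the SD changed by over 1.5 times in 19 without 1 clutch. Each such change was to a smaller value, since leaving out 1 of 8 values cannot raise an SD that much. On log2(FPKM + 1) the SD changed by over 1.5 times in 15, where 11 had a larger and 4 a smaller SD. No paired analysis was possible because 1 group is described and its replicate numbers follow accession order only. Differences among the embryos of a pool, sex, tank and father are unmeasured sources of spread, and so are RNA extraction and library preparation. The limma p-values weigh a difference only against the spread between these 8 pools, each with 1 library. The dispersion test and the test of pairs of clutches weigh spread against counting error alone.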
